A study of Mus musculus with 15 samples.

Results

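The populations compared here are 2 subsets of lymph node mesenchyme sorted on podoplanin (PDPN, the product of Pdpn) and BP3 (the product of Bst1): cells positive for both, written PDPN+BP3+, and podoplanin-negative cells, written PDPN-. Each was measured on 3 arrays, so the comparison rests on 6 of the 15 arrays of the series, taken by the titles in the labels. The cells came from C57BL/6 mice aged 2 weeks. Both subsets were gated as positive for the receptor PDGFRβ after digestion of pooled inguinal, axillary and brachial lymph nodes with liberase and DNase I, and the PDPN- gate also required Ly51, the product of Enpep. Each array held RNA from a pool of 10 to 11 mice, and the 3 arrays of a population came from 3 separate experiments. Another lymph node subset, podoplanin-positive but BP3-negative (PDPN+BP3-, 3 arrays), is used below to show where a difference goes with BP3. The remaining 6 arrays are thymic PDPN+BP3- and PDPN- cells and entered the estimate of the spread and the choice of 1 transcript cluster per gene. A gated population can hold several cell types, so in these bulk samples fewer cells of a type and less RNA per cell cannot be told apart.

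The reticular stroma of a lymph node builds the conduits and niches on which lymphocytes move. Podoplanin marks its fibroblastic reticular cells, which are known for homeostatic chemokines and survival cytokines, and reticular cells near the subcapsular sinus are known for CXCL13, the cytokine RANKL (Tnfsf11) and the addressin MAdCAM-1. Podoplanin-negative cells with PDGFRβ surround blood vessels as pericytes and smooth muscle, contract, and answer vasoactive peptides and Notch ligands.

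Values are log2 signal intensities, and differences are PDPN+BP3+ minus PDPN- on that scale, each ± its standard error from limma (n = 3 arrays in each population). A gene is called higher or lower when its adjusted p from limma (Benjamini-Hochberg over 18718 genes) is below 0.05. Signals of different genes come from different probes and are not set against each other. The median of the whole table was 3.8, and a signal below it need not stand above background, so differences that start there are differences of signal and not ratios of RNA.

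The arrays lay on the side their labels give. Pdpn read 8.78, 8.89 and 8.71 on the PDPN+BP3+ arrays and 3.48, 3.4 and 3.34 on the PDPN- arrays, and Bst1 read 8.94, 8.71 and 8.56 against 2.46, 2.52 and 2.26. Enpep read 4.61, 4.62 and 4.61 against 7.63, 7.63 and 7.82. The products of these genes were used to sort, so their differences are a check and not a result. Of the markers given for the population, Cxcl13, Grem1 and Dsc3 were high and Cpe low on every PDPN+BP3+ array, as described below. These markers were given with the label of this comparison, so their levels are no independent evidence of what the cells are. Pdgfrb, whose product was required in both gates, read 8.92, 9.02 and 9.08 on the PDPN+BP3+ and 10.53, 10.15 and 10.31 on the PDPN- arrays. Across genes the arrays correlated at 0.994 to 0.995 within PDPN+BP3+, 0.987 to 0.991 within PDPN- and 0.933 to 0.938 between them, where genes are not independent replicates.

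Of the 18718 genes, 3013 were higher in PDPN+BP3+ cells (16.1%) and 2105 were lower (11.2%), 5118 in all (27.3%). On 4972 of the 5118 the arrays of the populations did not overlap, a separation seen for 39.0% of all genes. A difference of more than 1 on the log2 scale was reached by 1015 of the higher and 771 of the lower genes, and one of more than 3 by 121 and 122. The balance of higher and lower calls depended on the scaling between arrays: 58.9% of the calls were higher as deposited, 51.5% after cyclic loess, 50.2% after quantile normalization and 47.8% with each array centred on its median. Against PDPN+BP3- cells the same fit called 1589 genes higher (8.49%) and 1449 lower (7.74%), 3038 in all (16.2%), and both comparisons use the same PDPN+BP3+ arrays. For 1543 of the calls against PDPN- cells the population with the lower mean lay below the table median.

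**Figure D1:**
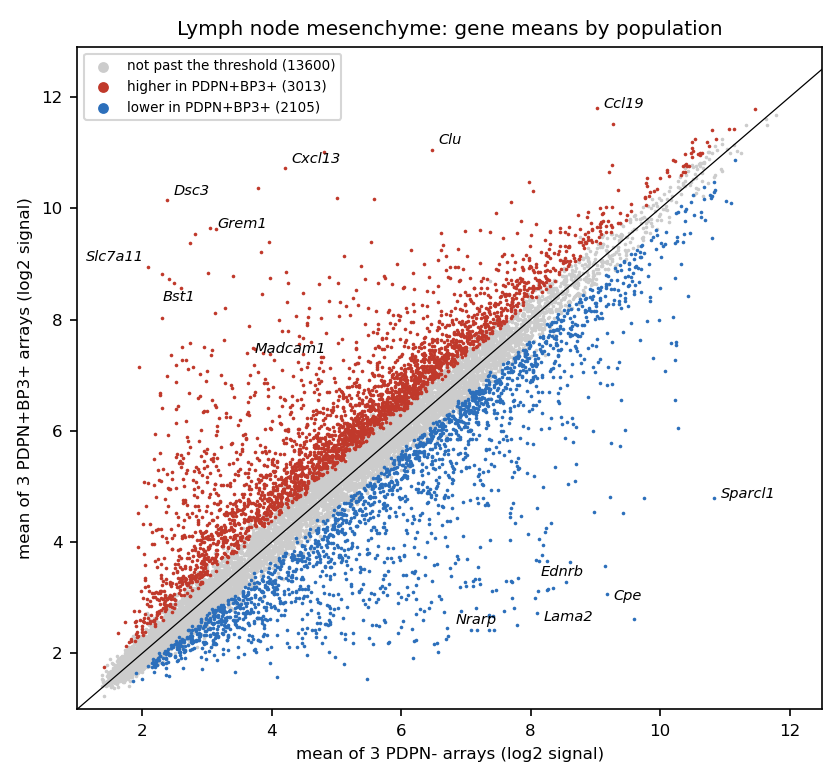
Mean log2 signal of each gene over the 3 PDPN- arrays (horizontal) and the 3 PDPN+BP3+ arrays (vertical). Each point is a gene, the line marks equal means, red and blue points passed an adjusted p of 0.05, and named genes far from the line, such as Dsc3 at 2.39 and 10.15 or Cpe at 9.18 and 3.06, are described in the text.

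The gene lists moved unevenly. Genes of ion channels and calcium handling, of pericytes and of the contractile apparatus had the lowest medians (-2.15, -1.44 and -0.80), and growth factors, elastic fibre genes and cell cycle genes the highest (0.98, 0.87 and 0.77). The growth factor list mean was higher still on the PDPN+BP3- arrays, 6.18 to 6.31 against 5.75 to 5.82 on the PDPN+BP3+ arrays. So was that of elastic fibre genes (7.43 to 7.65 against 5.96 to 6.13), while that of cell cycle genes was lower (4.93 to 5.23 against 6.41 to 6.65). The median over all genes tested was 0.00, and -0.09 with arrays centred on their median. The pericyte list holds Enpep and Pdgfrb, whose products were used in the sort. Lists also share members, so they are not independent. Kcnj8 and Trpc6 are in the channel and pericyte lists, Casq2 in the channel and contractile lists and Heyl in the pericyte and Notch lists. Lists on adhesion, collagens, Hox genes and retinoid metabolism had medians near 0 and held differences of both signs, and only some of their members are named below.

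**Figure D2:**
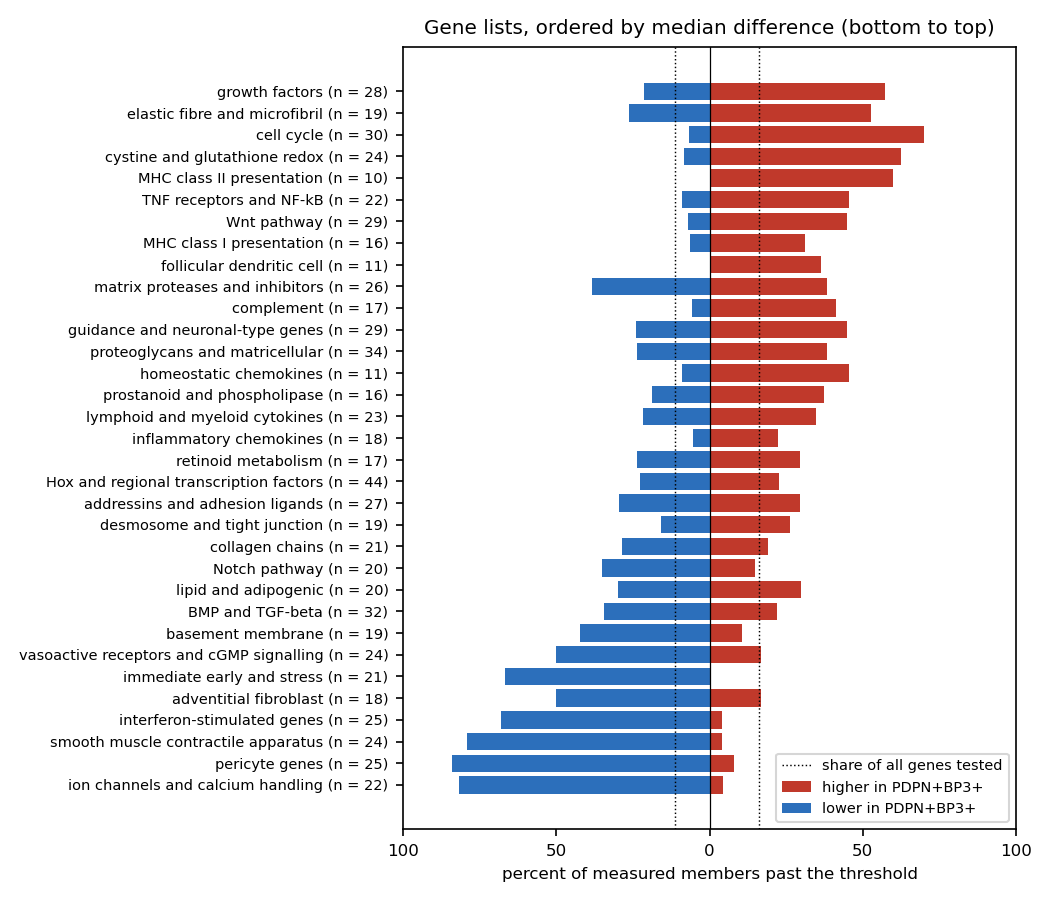
Share of each list's measured members that were higher (red, to the right) or lower (blue, to the left) in PDPN+BP3+ than in PDPN- cells at an adjusted p of 0.05, ordered by the list's median difference. The dotted lines mark the shares of all genes tested, 16.1% higher and 11.2% lower, and the number of members is in brackets.

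Among the chemokines measured, the largest difference was that of Cxcl13, which attracts B cells. It read 10.47, 10.88 and 10.82 on the PDPN+BP3+ arrays and 4.17, 3.81 and 4.62 on the PDPN- arrays, a difference of 6.52 ± 0.23 (limma adjusted p 3.16e-12). The PDPN+BP3- arrays lay between, at 8.85, 9.16 and 8.64, and none of the ranges of the 3 populations overlapped. Ccl19, a ligand of CCR7 that guides T cells and dendritic cells, read 11.73, 11.8 and 11.89 against 9.04, 9.24 and 8.8 (2.78 ± 0.12), high in both populations. Cxcl16, a membrane-bound chemokine, differed by 3.7 ± 0.15, Cxcl12, the ligand of CXCR4, by 2.42 ± 0.14, and Cx3cl1, the ligand of CX3CR1, by 2.04 ± 0.16. The scavenging receptor Ackr3 was the homeostatic gene that was lower (-0.97 ± 0.23). Of 11 homeostatic chemokines and scavenger receptors measured, 5 were higher and 1 lower (median 0.18), beside 16.1% and 11.2% of all genes. Ccl21a, Ccl21b, Ccl21c and Ackr4 of that list were not among the genes tested, so nothing can be said of them. For the monocyte attractants Ccl7 (2.6 ± 0.23) and Ccl9 (1.78 ± 0.21) the signal was higher too, as it was for 4 of 18 inflammatory chemokines (median 0.08, and -0.01 with arrays centred on their median), while Ccl2 and Cxcl1 stood at 0.29 ± 0.19 and -0.46 ± 0.19 and did not pass. Cxcl1 was called lower under 6 of 15 alternatives, among them the fits on 6 or 9 arrays and the fit without PDPN- replicate 1. Cxcl10, which interferon induces, was the 1 member that was lower (-0.72 ± 0.16), a count that was 3 without PDPN- replicate 1, 2 without PDPN- replicate 2 and 4 with arrays centred on their median.

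Several cytokine genes were higher in PDPN+BP3+ cells. Tnfsf13b, which encodes the B cell survival factor BAFF, read 7.71, 7.44 and 7.39 against 3.02, 2.78 and 3.09 (4.55 ± 0.16). Il7, which T cells need, read 7.6, 7.46 and 7.31 against 2.83, 2.99 and 3.42 (4.38 ± 0.17), and here the PDPN+BP3- arrays were nearer to the PDPN- arrays, at 4.41, 4.63 and 4.41. PDPN+BP3+ exceeded PDPN+BP3- cells in Il7 by 2.97 ± 0.17 in the same fit (limma adjusted p 2.22e-09). Tnfsf11, which encodes RANKL, read 6.9, 7.26 and 7.27 against 4.63, 4.46 and 4.57 (2.59 ± 0.31), and its difference from PDPN+BP3- cells, 0.94 ± 0.31, did not pass (limma adjusted p 0.0539). The alarmin Il33 had one of the largest differences of all genes (6.62 ± 0.12), with 9.44, 9.33 and 9.34 against 2.67, 2.89 and 2.68. PDPN+BP3- cells were high in Il33 as well, at 8.0, 8.28 and 7.9. On all of these cytokines no PDPN+BP3+ array overlapped a PDPN- array. The dendritic cell growth factor Flt3l (1.97 ± 0.12), the IL-6 family member Lif (1.84 ± 0.27) and the macrophage growth factor Csf1 (1.02 ± 0.11) were higher as well. Il15, which sustains natural killer cells and memory T cells, stood at 0.17 ± 0.16 and did not pass.

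The direction was not shared by all cytokines. Il34, the other ligand of the CSF1 receptor, read 6.55, 5.74 and 5.75 on the PDPN+BP3+ arrays and 9.5, 9.34 and 9.52 on the PDPN- arrays, a difference of -3.44 ± 0.18. Il6 read 5.36, 6.07 and 5.96 against 8.36, 8.79 and 8.83 (-2.86 ± 0.31), and the PDPN+BP3- arrays, at 8.42, 8.92 and 9.0, overlapped the PDPN- arrays. Tnfsf9, the ligand of CD137, was lower (-2.24 ± 0.21). Of 23 cytokine genes 8 were higher and 5 lower (median 0.12), and 3 were lower without PDPN+BP3+ replicate 2 or without PDPN- replicate 1. Csf2, Csf3, Il11, Osm, Il1a and Il1b had means below the table median in both populations.

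**Figure D3:**
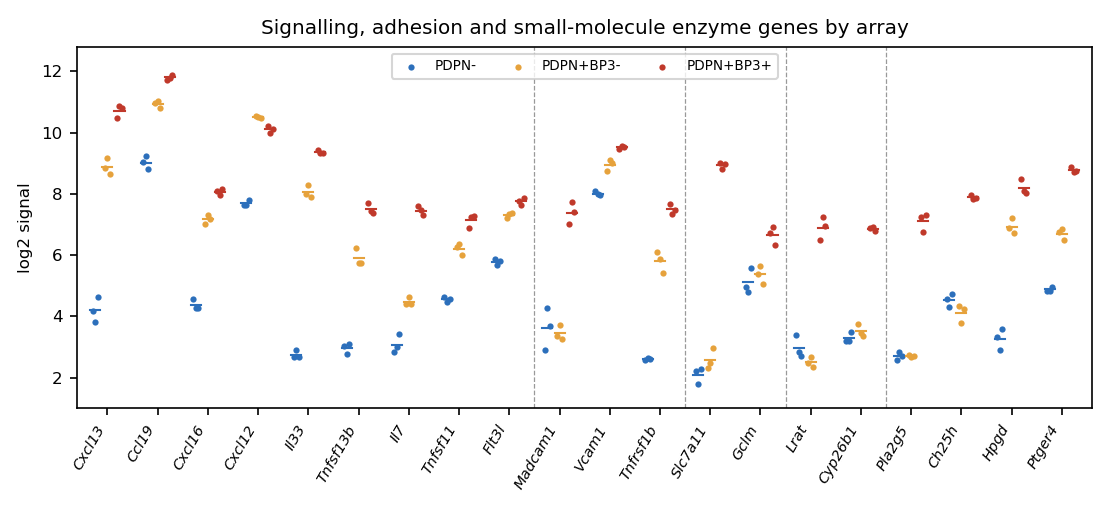
Log2 signal on each array (points) with the mean of 3 (bars) for PDPN- (blue), PDPN+BP3- (orange) and PDPN+BP3+ (red) cells of the lymph node. Dashed lines separate chemokines and cytokines, adhesion and TNF receptor genes, redox genes, retinoid genes and prostanoid or sterol genes. Madcam1, Slc7a11, Lrat, Cyp26b1, Pla2g5 and Ch25h are high on the red points alone, whereas Cxcl12 and Flt3l are high in both podoplanin-positive populations. Ccl19 is high on the blue points as well.

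Madcam1, the addressin for the integrin α4β7, was high in PDPN+BP3+ cells and low in both other lymph node populations. It read 7.03, 7.73 and 7.42 on the PDPN+BP3+ arrays, 2.9, 4.26 and 3.7 on the PDPN- arrays and 3.37, 3.71 and 3.26 on the PDPN+BP3- arrays. The difference was 3.77 ± 0.25 from PDPN- cells (limma adjusted p 6.29e-09) and 3.95 ± 0.25 from PDPN+BP3- cells (limma adjusted p 7.09e-09). Vcam1, the ligand of α4β1, was higher by 1.52 ± 0.13, the homophilic cadherin Cdh11 by 2.65 ± 0.18 and the neural cell adhesion molecule Ncam1 by 2.16 ± 0.13, while Icam1 stood at 0.41 ± 0.2 and did not pass. Icam1 was called in the fits on 6 or 9 arrays. The adhesion genes that were lower included the vascular junction molecule Esam, at 2.75, 2.4 and 2.4 against 7.72, 7.81 and 7.82, the laminin-binding integrin chain Itga7 (-4.7 ± 0.15), Itga8 (-3.99 ± 0.2), Cdh6 (-3.1 ± 0.16) and Mcam (-2.58 ± 0.18). Of 27 adhesion genes 8 were higher and 8 lower (median -0.03, and 0.02 after quantile normalization).

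Receptors and mediators of the TNF and NF-κB pathway, through which lymphotoxin and TNF act on lymphoid stroma, numbered 22, of which 10 rose and 2 fell (median 0.38). TNF receptor 2 (Tnfrsf1b) read 7.68, 7.36 and 7.46 on the PDPN+BP3+ arrays and 2.58, 2.65 and 2.6 on the PDPN- arrays (4.89 ± 0.19). Every array of the first lay far above every array of the second. Smaller rises were those of the adaptor Traf1 (1.77 ± 0.12), of the kinase NIK (Map3k14, 1.15 ± 0.19), which drives the non-canonical branch, and of the feedback genes Tnip1 (1.1 ± 0.13) and Bcl3 (0.93 ± 0.13). The lymphotoxin receptor Ltbr was higher by a small amount (0.41 ± 0.13), a call lost under 6 of 15 alternatives, 4 of which left out 1 array, and Relb (0.35 ± 0.16) did not pass. The NF-κB subunit Rel was lower (-1.03 ± 0.2). The count of 2 lower genes was 1 when any array of the 2 populations other than PDPN- replicate 3 was left out, and 4 with arrays centred on their median. Tnfaip3, the other lower gene, lost its call whichever array of the 2 populations was left out. Without PDPN- replicate 3 Cd40 was called in its place.

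The promoters of Madcam1 and Tnip1 are shown because both genes were higher and their windows hold matches to the κB motif. The windows run from 250 bases before to 50 bases after the RefSeq start in GRCm38.p6, Madcam1 at chr10:79664309-79664608 on the plus strand and Tnip1 at chr11:54962891-54963190 on the minus strand. Capitals mark every match on either strand, which overlap in Tnip1.
Madcam1: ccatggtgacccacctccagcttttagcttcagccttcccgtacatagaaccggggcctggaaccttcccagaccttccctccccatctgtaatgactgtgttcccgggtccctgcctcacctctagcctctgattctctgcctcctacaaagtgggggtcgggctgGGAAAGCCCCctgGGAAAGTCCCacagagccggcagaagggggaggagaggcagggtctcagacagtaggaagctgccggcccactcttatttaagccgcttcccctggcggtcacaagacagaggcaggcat
Tnip1: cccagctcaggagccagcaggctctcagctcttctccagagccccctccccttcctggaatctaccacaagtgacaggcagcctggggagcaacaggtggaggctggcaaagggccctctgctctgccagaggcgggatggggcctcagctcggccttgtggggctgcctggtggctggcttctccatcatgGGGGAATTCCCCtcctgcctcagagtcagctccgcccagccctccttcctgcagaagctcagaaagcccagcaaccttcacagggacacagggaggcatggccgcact
The κB motif was found in 7 of 18 windows of the TNF and NF-κB list (38.9%), 5 of 11 of the inflammatory chemokines (45.5%), 2 of 10 of the homeostatic chemokines, 2 of 13 of the cytokines (15.4%) and 1 of 15 of the adhesion genes (6.67%), beside 5.77% of 14694 genes with a window. Genes with a match moved in either direction: Bcl3 and Csf1 were higher, Rel and Il6 lower, and Nfkbia and Cxcl1 did not pass.

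The desmosomal cadherins Dsc3 and Dsc2, which link cells through desmosomes, were among the largest rises. Dsc3 read 10.22, 10.19 and 10.03 on the PDPN+BP3+ arrays and 2.42, 2.38 and 2.36 on the PDPN- arrays (7.76 ± 0.13, limma adjusted p 1.93e-15), the largest rise of all genes tested. PDPN+BP3- cells lay between, at 6.17, 6.09 and 5.8, below PDPN+BP3+ cells by 4.13 ± 0.13. Dsc2 read 9.47, 9.61 and 9.51 against 2.63, 3.07 and 2.73 (6.72 ± 0.15), with PDPN+BP3- at 4.57, 4.82 and 4.52. Another desmosomal cadherin, Dsg2, read 5.85, 5.23 and 5.75 against 2.74, 2.17 and 1.9 (3.34 ± 0.21), and plakoglobin (Jup), which binds their cytoplasmic tails, read 8.34, 8.02 and 8.09 against 6.99, 6.06 and 5.57 (1.94 ± 0.25). The plaque proteins that complete a desmosome in epithelium were not high. Desmoplakin (Dsp) read 2.17, 1.94 and 2.16 against 2.72, 2.17 and 2.17 and plakophilin 2 (Pkp2) 2.09, 1.94 and 1.85 against 2.43, 2.16 and 2.25, below the table median in both populations. The claudin Cldn1 was high in both podoplanin-positive populations: it was 6.17 ± 0.18 above PDPN- cells and -0.34 ± 0.18 from PDPN+BP3- cells, the latter not past the threshold (limma adjusted p 0.267). Of 19 junction genes 5 were higher and 3 lower (median -0.04), with 1 lower without PDPN+BP3+ replicate 2 or without PDPN- replicate 1. None of the 13 epithelial genes measured, Epcam and the keratins among them, was called by limma, with 1 lower and 0 higher at an unadjusted p below 0.05 and 1 lower after cyclic loess. Their list mean was 2.56 to 2.69 on the PDPN+BP3+ and 2.71 to 2.73 on the PDPN- arrays.

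Slc7a11, the transporter that exchanges cystine for glutamate, separated PDPN+BP3+ cells from both other lymph node populations. It read 9.02, 8.82 and 8.98 on the PDPN+BP3+ arrays, 2.2, 1.78 and 2.29 on the PDPN- arrays and 2.31, 2.49 and 2.96 on the PDPN+BP3- arrays. Its difference was 6.85 ± 0.2 from the PDPN- and 6.35 ± 0.2 from the PDPN+BP3- cells. Of 24 cystine and glutathione genes 15 were higher and 2 lower (median 0.62). They included the modifier subunit of glutamate-cysteine ligase Gclm (6.74, 6.91 and 6.34 against 4.96, 4.8 and 5.57, 1.55 ± 0.27), glutathione reductase Gsr (1.5 ± 0.18), the extracellular peroxidase Gpx3 (1.78 ± 0.29), the endoplasmic reticulum peroxidase Gpx7 (1.85 ± 0.14) and the microsomal transferase Mgst1 (3.05 ± 0.18). The catalytic subunit of the same ligase, Gclc, was lower (-0.7 ± 0.13). Heme oxygenase Hmox1 (1.01 ± 0.19) and thioredoxin reductase Txnrd1 (0.64 ± 0.14) were higher, while Nqo1 (0.08 ± 0.16) and Srxn1 (-0.06 ± 0.17), which like Hmox1 and Txnrd1 are induced by oxidative stress in many cells, did not pass.

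The Gclm promoter is shown because its window holds the core of an antioxidant response element (ARE), searched as TGACNNNGC on both strands. The window lies at chr3:122245307-122245606 on the plus strand in GRCm38.p6, and capitals mark the match.
Gclm: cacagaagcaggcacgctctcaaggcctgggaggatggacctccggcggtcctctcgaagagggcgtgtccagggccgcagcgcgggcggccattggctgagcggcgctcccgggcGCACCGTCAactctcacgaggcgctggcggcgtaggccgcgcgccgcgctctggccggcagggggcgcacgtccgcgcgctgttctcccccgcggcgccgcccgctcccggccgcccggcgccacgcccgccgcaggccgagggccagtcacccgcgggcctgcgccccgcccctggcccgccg
The same letters were found in 5 of 19 windows of the list (26.3%), beside 15.4% of all genes with a window, and the 5 genes were Gclm, Txnrd1, Srxn1, Mgst1 and Nfe2l2.

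Enzymes that handle retinoids differed in both directions. Lrat, which esterifies retinol for storage, read 6.51, 7.24 and 6.96 on the PDPN+BP3+, 3.4, 2.83 and 2.71 on the PDPN- and 2.49, 2.67 and 2.33 on the PDPN+BP3- arrays (3.92 ± 0.19 from PDPN- cells, 4.41 ± 0.19 from PDPN+BP3- cells). Cyp26b1, which degrades retinoic acid, read 6.9, 6.91 and 6.79, 3.19, 3.19 and 3.48 and 3.74, 3.46 and 3.35 in the same order (3.58 ± 0.13 from PDPN- cells). Both genes were high in PDPN+BP3+ cells and low in the other lymph node populations. Among enzymes that make retinaldehyde or retinoic acid, Rdh10 (1.02 ± 0.13) and Aldh1a3 (1.14 ± 0.17) were higher, Rdh5 was lower (-2.43 ± 0.23), and Aldh1a2 stood at -0.21 ± 0.18 and did not pass. The receptor gene Rarb, itself a target of retinoic acid, was lower (2.75, 2.92 and 3.03 against 4.7, 4.82 and 4.72, -1.85 ± 0.16). Of 17 retinoid genes 5 were higher and 4 lower, and the lower count was 2 without PDPN+BP3+ replicate 2 or without PDPN- replicate 3.

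Of 16 prostanoid and phospholipase genes, 6 were higher and 3 lower (median 0.14). The secreted phospholipase Pla2g5 read 7.26, 6.76 and 7.3 against 2.56, 2.85 and 2.72 (4.4 ± 0.14), and the PDPN+BP3- arrays, at 2.75, 2.68 and 2.71, overlapped the PDPN- arrays. The cytosolic phospholipase Pla2g4a (2.46 ± 0.18), the cyclooxygenase Ptgs2 (8.7, 9.04 and 8.94 against 6.68, 6.98 and 6.4, 2.21 ± 0.21) and, counted with the vasoactive receptors below, the prostaglandin E2 receptor Ptger4 (8.87, 8.71 and 8.74 against 4.84, 4.84 and 4.97, 3.89 ± 0.16) were higher. So was Hpgd, which breaks prostaglandins down (8.48, 8.1 and 8.04 against 3.34, 2.9 and 3.59, 4.93 ± 0.24). The terminal synthase Ptges was lower (-0.82 ± 0.17). Cholesterol 25-hydroxylase (Ch25h), which makes the precursor of the ligand of the receptor EBI2, read 7.97, 7.85 and 7.88 against 4.58, 4.3 and 4.74 (3.36 ± 0.25), with 4.35, 3.79 and 4.24 in PDPN+BP3- cells. Cyp7b1, the next enzyme of that path, was lower (-1.68 ± 0.18). The phosphatidylserine-specific phospholipase Pla1a was lower (-4.67 ± 0.18). The count of 3 lower genes was 5 with arrays centred on their median.

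Grem1, a secreted antagonist of BMPs, read 9.6, 9.67 and 9.67 on the PDPN+BP3+ arrays and 3.13, 3.11 and 2.91 on the PDPN- arrays (6.6 ± 0.12), with PDPN+BP3- cells between at 7.4, 7.52 and 7.12. A second antagonist, Chrdl1, was higher than in PDPN- cells (2.71 ± 0.21) and lower than in PDPN+BP3- cells (-1.28 ± 0.21). These antagonists bind the ligands outside the cell. The ligands themselves split: Bmp4 (6.63, 6.39 and 6.05 against 3.45, 2.56 and 3.0, 3.35 ± 0.22) and Bmp3 (2.81 ± 0.17) were higher, and Bmp5 (2.96, 2.93 and 2.89 against 6.13, 6.57 and 6.67, -3.53 ± 0.14), Bmp2 (-1.41 ± 0.23), the activin subunit Inhba (-3.11 ± 0.15) and Tgfb2 (-2.32 ± 0.15) were lower. The inhibitors of differentiation Id4 (-3.24 ± 0.14) and Id3 (-0.77 ± 0.15), which BMPs induce, were lower. Of 32 BMP and TGF-β genes 7 were higher and 11 lower (median -0.22).

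Of 29 Wnt pathway genes, 13 were higher and 2 lower (median 0.35). The list mean was 4.42 to 4.45 on the PDPN+BP3+, 3.6 to 3.64 on the PDPN- and 4.82 to 4.9 on the PDPN+BP3- arrays. The secreted Wnt antagonists Sfrp2 (9.49, 9.26 and 9.42 against 4.08, 3.93 and 3.85, 5.44 ± 0.11) and Sfrp1 (3.49 ± 0.15) led, and the agonists Rspo3 (2.51 ± 0.17) and Rspo1 (2.07 ± 0.22) and the ligands Wnt5a (2.71 ± 0.17) and Wnt11 (2.38 ± 0.18) were higher too. Sfrp2 was also high in PDPN+BP3- cells, at 8.91, 8.85 and 9.05. The feedback targets Nkd1 (1.29 ± 0.14), Nkd2 (0.9 ± 0.14) and Axin2 (0.68 ± 0.11) showed smaller rises. The receptor Fzd4 (-2.13 ± 0.13) and the antagonist Sfrp4 (-1.25 ± 0.19) were lower. Among growth factors 16 of 28 genes were higher and 6 lower (median 0.98). Igf1 read 8.66, 8.73 and 8.58 against 5.09, 5.25 and 4.73 (3.63 ± 0.17), whereas Igf2 read 3.16, 3.52 and 3.23 against 6.89, 7.14 and 7.29 (-3.8 ± 0.17). The insulin-like growth factors thus stood on opposite sides. Igfbp2 (8.81, 8.05 and 7.76 against 4.43, 4.46 and 4.84, 3.63 ± 0.28), Vegfa (3.09 ± 0.13), Vegfc, a growth factor of lymphatic vessels (3.22 ± 0.15), and the receptor Fgfr2 (2.99 ± 0.21) were higher.

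Matrix genes showed large differences of both signs between podoplanin-positive BP3+ and podoplanin-negative cells. Thbs4, a thrombospondin of tendon and vessel wall, read 9.11, 8.59 and 8.8 against 2.9, 2.94 and 3.22 (5.81 ± 0.26), and tenascin N (Tnn) 5.58, 5.87 and 5.55 against 2.84, 3.32 and 2.84 (2.67 ± 0.17). Both were also higher than in PDPN+BP3- cells, by 5.31 ± 0.26 and 2.91 ± 0.17. The collagen-binding proteoglycan Fmod (2.46 ± 0.18), the fibril-associated collagen Col14a1 (2.62 ± 0.15), Ltbp2 (2.95 ± 0.17) and Fbln2 (3.45 ± 0.16) were higher. Fibril-forming Col1a1 (0.3 ± 0.13) and Col3a1 (-0.06 ± 0.13) did not pass, and of 21 collagen chains 4 were higher and 6 lower (median -0.06). Of 19 elastic fibre and microfibril genes 10 were higher and 5 lower (median 0.87), and of 34 proteoglycan and matricellular genes 13 were higher and 8 lower (median 0.18).

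Other matrix genes were lower in PDPN+BP3+ cells. Sparcl1, a secreted relative of SPARC, read 4.78, 4.67 and 4.92 against 10.92, 10.68 and 10.9 (-6.04 ± 0.14). The microfibril gene Mfap5 read 3.31, 2.9 and 3.66 against 8.54, 8.82 and 8.28 (-5.26 ± 0.2), and in PDPN+BP3- cells 10.84, 10.6 and 10.88, above both. Lama2, the laminin chain of muscle basement membrane, read 2.69, 2.85 and 2.64 against 8.34, 7.92 and 8.03 (-5.37 ± 0.16), while PDPN+BP3- cells stood at 8.78, 8.26 and 8.54. The PDPN+BP3+ cells were thus the lymph node population with low Lama2 and low Mfap5. Of 19 basement membrane genes 8 were lower and 2 higher (median -0.31), the lower ones including Agrn (-1.64 ± 0.15), Lamb2 (-1.14 ± 0.15) and Col4a2 (-0.86 ± 0.14) and the higher ones being Lama1 (1.12 ± 0.1) and Lamb3 (0.72 ± 0.17). Cpe, the carboxypeptidase that trims prohormones, read 3.18, 2.72 and 3.29 against 9.13, 9.07 and 9.33 (-6.11 ± 0.14), and 8.78, 8.88 and 9.1 in PDPN+BP3- cells. Of 26 matrix proteases and inhibitors 10 were higher and 10 lower (median 0.26). The aggrecanases stood on opposite sides, with Adamts4 at -4.05 ± 0.2 and Adamts5 at 3.09 ± 0.19.

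**Figure D4:**
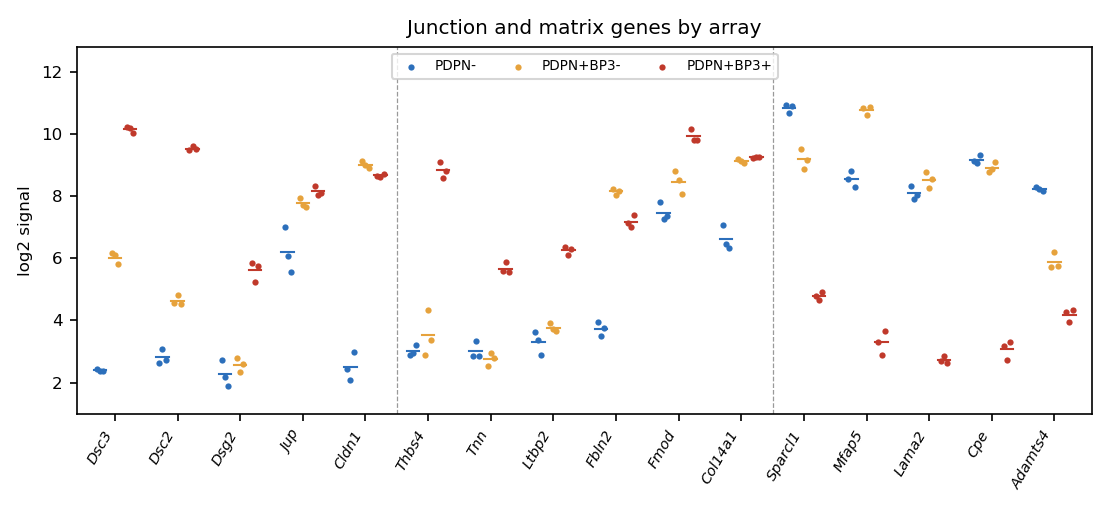
Log2 signal on each array (points) with the mean of 3 (bars) for PDPN- (blue), PDPN+BP3- (orange) and PDPN+BP3+ (red) cells. Dashed lines separate junction genes, matrix genes that were higher and matrix or protease genes that were lower in PDPN+BP3+ than in PDPN- cells. Cpe, Lama2, Mfap5 and Sparcl1 are low on the red points alone, and Dsc3 is intermediate on the orange points.

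The contractile apparatus was lower in PDPN+BP3+ cells for 19 of its 24 genes and higher for 1 (median -0.80), by amounts that differed widely between members. Calponin (Cnn1) read 2.41, 2.44 and 2.07 on the PDPN+BP3+ arrays and 6.5, 6.78 and 6.87 on the PDPN- arrays (-4.41 ± 0.21). Casq2, which stores calcium, read 2.15, 2.27 and 2.15 against 6.35, 6.39 and 6.9 (-4.36 ± 0.17), enteric actin (Actg2) 4.06, 4.06 and 4.02 against 7.21, 7.55 and 7.38 (-3.33 ± 0.12), and the coactivator Myocd, which drives the smooth muscle programme, 2.76, 2.99 and 3.29 against 6.14, 5.82 and 6.04 (-2.99 ± 0.13). On these genes the PDPN+BP3+ signal was near or below the table median. The differences were smaller for the smooth muscle myosin Myh11 (7.65, 7.44 and 7.66 against 10.24, 10.04 and 10.23, -2.59 ± 0.16), for Myl9 (-0.9 ± 0.12) and for smooth muscle actin (Acta2), at 10.25, 10.19 and 10.2 against 10.84, 10.8 and 10.78 (-0.59 ± 0.12). Acta2 and Myh11 were at the same time higher than in PDPN+BP3- cells, by 0.85 ± 0.12 and 1.4 ± 0.16 (limma adjusted p 4.5e-05 and 6.46e-06). Desmin (Des) was the higher member (0.79 ± 0.23), a call lost when PDPN+BP3+ replicate 1 or PDPN- replicate 2 or 3 was left out, and the count was 2 without PDPN- replicate 1.

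The Myl9 promoter is shown as a contractile gene whose window holds a CArG box, the element bound by serum response factor. It lies at chr2:156775214-156775513 on the plus strand in GRCm38.p6, and capitals mark the match.
Myl9: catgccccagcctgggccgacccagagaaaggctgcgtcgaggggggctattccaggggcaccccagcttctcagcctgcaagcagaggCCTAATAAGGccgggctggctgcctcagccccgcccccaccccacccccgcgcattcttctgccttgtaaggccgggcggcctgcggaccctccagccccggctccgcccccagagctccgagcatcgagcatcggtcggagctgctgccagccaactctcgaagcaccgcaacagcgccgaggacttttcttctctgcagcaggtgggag
A CArG box was found in 3 of 20 windows of the contractile list, those of Myl9, Vcl and Srf, beside 1.65% of all genes with a window.

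Among 25 pericyte genes 21 were lower and 2 higher (median -1.44). The ADP-ribosyltransferase family member Art3 read 3.13, 3.26 and 3.08 against 8.05, 8.35 and 8.4 (-5.11 ± 0.15), the G protein regulator Rgs4 4.59, 4.29 and 4.69 against 9.18, 9.46 and 9.64 (-4.9 ± 0.23) and the LIM-domain gene Fhl5 5.05, 4.62 and 4.75 against 9.24, 9.07 and 9.37 (-4.42 ± 0.14). Every PDPN- array exceeded every PDPN+BP3+ array on these genes by more than any spread within a population. The respiratory chain subunit Cox4i2 (-3.9 ± 0.19), the related Ndufa4l2 (-4.22 ± 0.21), Higd1b (-4.25 ± 0.12), the proteoglycan NG2 (Cspg4, -3.23 ± 0.17) and the TIE2 ligands Angpt1 (-3.62 ± 0.16) and Angpt2 (-3.29 ± 0.17) were lower. Rgs5, a much used pericyte marker, was lower by a smaller amount, 9.46, 9.43 and 9.51 against 10.81, 10.77 and 10.84 (-1.34 ± 0.12), and higher than in PDPN+BP3- cells by 1.38 ± 0.12. Pdgfra (8.82, 8.5 and 8.68 against 4.4, 3.98 and 4.38, 4.41 ± 0.14), the PDGF receptor typical of fibroblasts, and vitronectin (Vtn, 0.97 ± 0.13) were the higher members. Genes of blood endothelium were called lower for 4 of 17, Esam among them, and higher for 2. Pecam1 (-0.19 ± 0.27) and Cdh5 (0.37 ± 0.19) were not called, and the list mean was 3.62 to 3.75 on the PDPN+BP3+ and 3.83 to 4.24 on the PDPN- arrays. The part of endothelial RNA in the result was not tested.

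Among 22 genes of channels and calcium handling 18 were lower and 1 higher (median -2.15). Stac, an adaptor of voltage-gated calcium channels, read 2.51, 2.41 and 2.37 against 7.64, 7.12 and 7.29 (-4.92 ± 0.13), and the receptor-operated channel Trpc6 2.24, 2.24 and 2.18 against 5.89, 6.56 and 6.15 (-3.98 ± 0.14). PDPN+BP3- cells were low on both, at 2.43, 2.6 and 2.37 and 2.36, 2.34 and 2.33. The chloride channel Ano1 was lower than in PDPN- cells (-2.64 ± 0.18) and lower than in PDPN+BP3- cells (-2.54 ± 0.18). The ryanodine receptor Ryr2 (-2.87 ± 0.13), phospholamban (Pln, -2.58 ± 0.22) and the sodium pump subunit Atp1b2 (-3.69 ± 0.17) were lower. The large-conductance potassium channel Kcnma1 was the exception, at 6.29, 5.98 and 6.24 against 2.83, 2.73 and 2.47 (3.49 ± 0.13), while its smooth muscle subunit Kcnmb1 stood at -0.39 ± 0.17 and did not pass. Kcnmb1 was called after quantile normalization.

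Receptors for vasoactive peptides and the cGMP pathway, which relaxes smooth muscle, fell for 12 of 24 genes and rose for 4 (median -0.38). The endothelin receptor Ednrb read 3.14, 3.16 and 3.25 against 8.19, 8.41 and 8.44 (-5.16 ± 0.14). The cGMP-dependent kinases Prkg1 (2.91, 2.79 and 2.61 against 7.5, 7.55 and 7.73, -4.82 ± 0.17) and Prkg2 (-4.32 ± 0.18), the phosphodiesterase Pde5a (-2.7 ± 0.2) and the guanylate cyclase subunit Gucy1b1 (-2.29 ± 0.21) were lower. The angiotensin receptors moved in opposite directions. Agtr1a read 7.24, 7.14 and 7.43 against 10.34, 10.0 and 10.33 (-2.95 ± 0.14), and Agtr2 read 6.46, 6.69 and 6.64 against 2.36, 3.18 and 3.07 (3.73 ± 0.21), with PDPN+BP3- cells at 9.59, 10.14 and 9.9, above both. The natriuretic peptide receptors split too, with the clearance receptor Npr3 lower (-2.56 ± 0.21) and the C-type receptor Npr2 higher (2.78 ± 0.13).

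**Figure D5:**
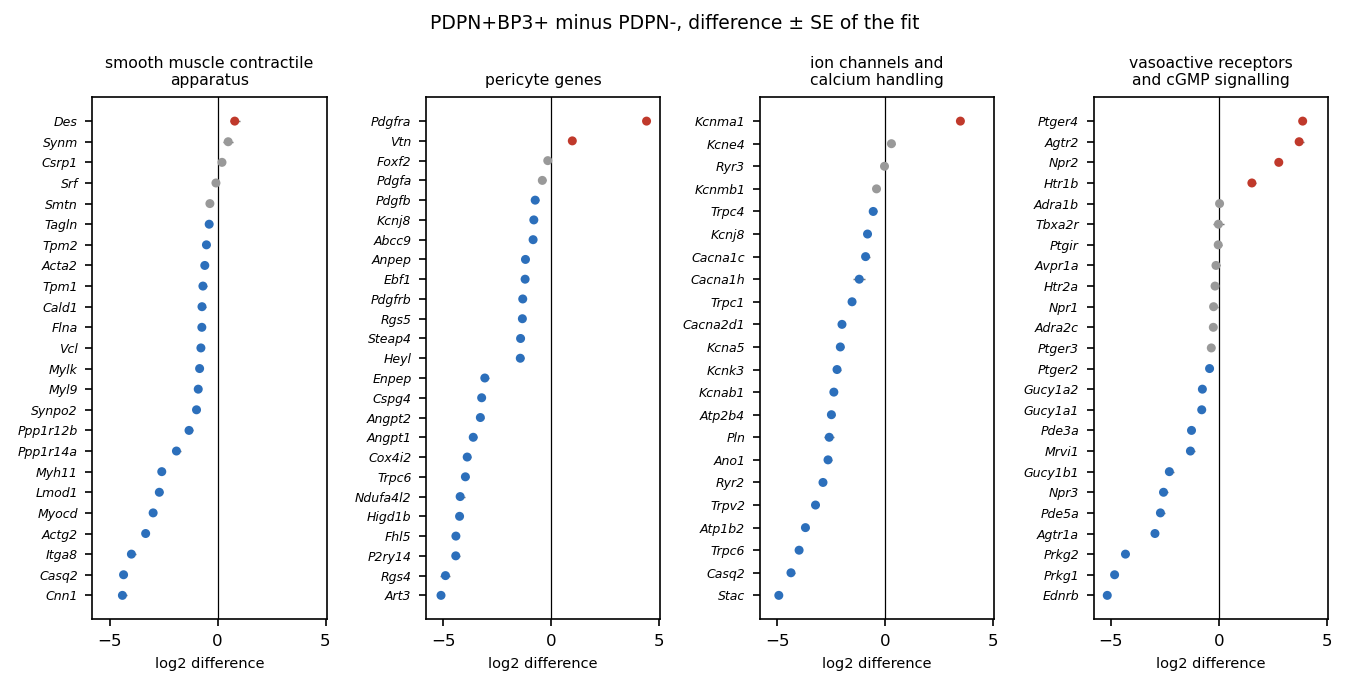
Log2 difference PDPN+BP3+ minus PDPN- for the members of 4 lists, with the standard error of the limma fit as a horizontal line, often shorter than the point. Red points were higher and blue points lower at an adjusted p of 0.05, and grey points did not pass. Most members lie left of 0, with Pdgfra, Kcnma1, Ptger4 and Agtr2 far to the right.

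Among 20 Notch pathway genes 7 were lower and 3 higher (median -0.06), beside 11.2% and 16.1% of all genes. The higher count is thus near the share of all genes. The lower count was 5 to 6 with 1 array left out. Nrarp, a target that restrains Notch signalling, read 2.9, 2.76 and 2.81 against 7.78, 7.67 and 7.78 (-4.92 ± 0.12), and the PDPN+BP3- arrays overlapped the PDPN+BP3+ arrays, at 2.68, 2.81 and 2.78. The receptor Notch3 (7.97, 7.82 and 8.14 against 10.01, 9.62 and 9.76, -1.82 ± 0.19), the effector Heyl (-1.44 ± 0.16) and the ligand Jag1 (-0.97 ± 0.12) were lower. The ligands Dll4 (5.83, 5.76 and 5.95 against 3.57, 3.57 and 3.66, 2.25 ± 0.18) and Dll1 (1.34 ± 0.2) were higher, as was Notch2 (0.74 ± 0.17). The letters TGGGAA, the core bound by the Notch mediator RBPJ, were found on either strand of 5 of 16 windows of the list (31.2%), beside 27.1% of all genes.

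Interferon-stimulated genes fell in PDPN+BP3+ cells for 17 of 25 and rose for 1 (median -0.76). Rtp4 read 4.94, 4.66 and 4.39 against 7.5, 7.18 and 7.35 (-2.68 ± 0.16), Ifit3 5.39, 5.19 and 5.18 against 8.05, 7.59 and 7.57 (-2.48 ± 0.16), Ifit1 3.79, 3.78 and 3.62 against 6.09, 5.88 and 5.94 (-2.24 ± 0.14) and the ubiquitin-like modifier Isg15 5.14, 4.68 and 4.62 against 6.71, 6.72 and 6.73 (-1.91 ± 0.13). The regulators Irf7 (-2.23 ± 0.17) and Irf1 (-1.6 ± 0.18) were lower. PDPN+BP3- cells lay between on these genes, for instance at 5.12, 4.9 and 5.45 for Ifit1. Usp18, the protease that removes Isg15 and restrains interferon signalling, was the higher gene (7.28, 7.29 and 7.11 against 5.46, 5.29 and 5.25, 1.89 ± 0.17), and 2 genes were higher without PDPN+BP3+ replicate 3.

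The promoters of Ifit1 and Isg15 are shown because most windows of this list share a motif, the interferon-stimulated response element (ISRE), searched as GAAANNGAAA on both strands with overlaps allowed. Ifit1 lies at chr19:34640639-34640938 on the plus strand and Isg15 at chr4:156200769-156201068 on the minus strand in GRCm38.p6, and capitals mark the matches, which run into each other in Isg15.
Ifit1: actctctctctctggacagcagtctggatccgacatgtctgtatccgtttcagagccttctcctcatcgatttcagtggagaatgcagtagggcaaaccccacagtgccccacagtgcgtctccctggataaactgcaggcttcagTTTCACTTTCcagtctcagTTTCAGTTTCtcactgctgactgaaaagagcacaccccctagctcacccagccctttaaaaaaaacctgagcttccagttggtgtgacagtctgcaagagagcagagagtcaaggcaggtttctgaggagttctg
Isg15: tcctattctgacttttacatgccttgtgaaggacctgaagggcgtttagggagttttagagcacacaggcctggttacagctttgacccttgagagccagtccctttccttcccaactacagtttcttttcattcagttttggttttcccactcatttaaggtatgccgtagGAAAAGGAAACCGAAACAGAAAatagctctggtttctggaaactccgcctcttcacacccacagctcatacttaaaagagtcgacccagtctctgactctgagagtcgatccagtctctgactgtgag
The motif was found in 12 of 19 windows of the list (63.2%), beside 3.91% of all genes with a window. Of those 12 genes 8 were lower and 0 higher by limma, and Oas3, Bst2, Ddx58 and Gbp2 did not pass. In the whole list, which includes these 12 genes and also genes without a window, 17 of 25 were lower. Whether the motif goes with the lower calls was not tested.

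Of 30 cell cycle genes, 21 were higher and 2 lower (median 0.77). The spindle factor Tpx2 read 7.63, 7.67 and 7.7 against 5.51, 5.89 and 5.7 (1.97 ± 0.14), topoisomerase Top2a 7.47, 7.81 and 7.6 against 6.21, 6.78 and 6.52 (1.12 ± 0.19) and the helicase subunit Mcm2 6.27, 6.76 and 6.38 against 5.2, 5.57 and 5.09 (1.18 ± 0.17). The list mean was 6.41, 6.65 and 6.46 on the PDPN+BP3+ arrays, 5.54, 6.06 and 5.94 on the PDPN- arrays and 4.93, 5.23 and 5.06 on the PDPN+BP3- arrays, so the populations did not overlap. Replicate 2 was the highest array of each. Without PDPN+BP3+ replicate 2, 13 members were higher. The cell cycle inhibitor Cdkn1a was lower (6.71, 6.78 and 6.57 against 8.38, 8.44 and 8.47, -1.74 ± 0.18). The other of the 2 lower genes was the replication gene Pcna. It lost its call, leaving 1, without PDPN+BP3+ replicate 1, PDPN- replicate 2 or PDPN- replicate 3. A further 7 members did not pass, among them Aurka (0.37), Ccne1 (0.04) and Ccnd2 (-0.28). Immediate early and stress genes, which respond within minutes to many stimuli, fell for 14 of 21 and rose for 0 by limma (median -0.52), with 15 lower and 0 higher at an unadjusted p below 0.05. Nr4a2 (-2.56 ± 0.3) and Fosl2 (-1.1 ± 0.19) fell most, while Jun (-0.07 ± 0.11) and Egr1 (-0.23 ± 0.1) did not pass. Egr1 was called after quantile normalization and with arrays centred on their median.

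Genes of lipid handling set the populations apart in both directions. Fabp4, a fatty acid carrier, read 4.25, 3.4 and 3.04 against 8.98, 9.17 and 9.3 (-5.59 ± 0.25), the nuclear receptor Pparg 2.72, 2.69 and 2.6 against 7.27, 7.59 and 7.39 (-4.75 ± 0.15) and the fatty acid receptor Cd36 2.5, 2.45 and 2.34 against 6.35, 7.43 and 7.73 (-4.74 ± 0.3). Of 10 adipocyte genes, among them Fabp4 and Pparg, 3 were lower and the lipase Lipe was higher (0.63 ± 0.17), which lost its call after quantile normalization and without PDPN+BP3+ replicate 3. The list mean was 3.15 to 3.21 on the PDPN+BP3+ and 4.21 to 4.35 on the PDPN- arrays. Adipoq (-0.14 ± 0.12) and Plin1 (-0.07 ± 0.13), which define adipocytes, were below the table median in both populations. The part of adipocyte RNA in these differences was not tested. The leptin receptor Lepr (7.81, 7.81 and 8.02 against 4.1, 3.17 and 3.67, 4.23 ± 0.18) and apolipoprotein E (Apoe, 2.24 ± 0.2) were higher. Of 20 lipid and adipogenic genes 6 were higher and 6 lower (median -0.13).

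Several of the largest differences fell outside these groups. Stmn2, a microtubule regulator best known in neurons, read 9.19, 8.71 and 8.54 against 2.24, 2.4 and 2.3 (6.5 ± 0.16), and 2.58, 2.97 and 3.08 in PDPN+BP3- cells. Timd4, a receptor for phosphatidylserine on dying cells, read 8.35, 8.76 and 8.6 against 2.53, 2.5 and 2.79 (5.96 ± 0.18), the membrane peptidase Mme 8.21, 7.97 and 7.92 against 2.18, 2.34 and 2.39 (5.73 ± 0.12), and the tip-link protocadherin Pcdh15 7.08, 7.26 and 7.09 against 1.87, 1.96 and 2.01 (5.2 ± 0.1). All 3 were above PDPN+BP3- cells as well, by 4.87 ± 0.18, 3.01 ± 0.12 and 3.89 ± 0.1. The lysophosphatidic acid receptor Lpar1 (5.37 ± 0.15) and the matrix protein Tgfbi (6.2 ± 0.17) were high in both podoplanin-positive populations. Csf2rb2 (6.57 ± 0.3) and Serpina3n (5.18 ± 0.23) were higher too, but each has close paralogs whose RNA the probes may also bind. The largest fall of all genes tested was that of Olfr558, named here after its values were seen because olfactory receptor genes were otherwise only counted. It read 2.6, 2.61 and 2.65 against 9.69, 9.56 and 9.53 (-6.97 ± 0.19), and 4.45, 4.83 and 4.06 in PDPN+BP3- cells. Among the other falls were the caveolar protein Cav1 (5.07, 4.66 and 4.64 against 9.83, 9.77 and 9.66, -4.96 ± 0.19), the transcription factor Tbx2 (-4.99 ± 0.22), the Arf regulator Adap2 (-5.12 ± 0.17), the Rac regulator Chn1 (-5.02 ± 0.18) and the lipid phosphatase Inpp4b (-5.07 ± 0.13).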

How the data were processed

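The authors hybridised amplified total RNA to Affymetrix Mouse Gene 1.1 ST arrays and, per the submitters' processing notes, used RMA in the Affymetrix Expression Console (version not given in the sources used). The authors made the deposited log2 values this way, per the submitters' processing notes. The base of the logarithm is not in the labels and was inferred from the range, 1.07 to 12.07. Of 24758 deposited transcript clusters, 20844 had 1 gene symbol in the array annotation, 1735 had several and 2179 had none. Clusters with 1 symbol were kept, and for 1230 genes with more than 1 cluster that of highest mean signal across all 15 arrays was used, leaving 18718 genes. The values were taken as deposited and fitted with limma 3.58.1 in R 4.3.3 (lmFit, eBayes), with 1 mean for each of 5 populations over 15 arrays (10 residual degrees of freedom), and p-values were adjusted by Benjamini-Hochberg over all 18718 genes. The number of arrays limits the precision. The model was also run on simulated data whose means and spreads were taken from these arrays.

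Genes were named from a set fixed by rule: the sort antigens, the markers given with the population, the 20 largest rises and 20 largest falls whose arrays did not overlap, and members of gene lists, of which 846 of 929 names were measured. Not every gene of the set is described. Among the largest differences, Shisa3 (6.49 ± 0.16) and Tinagl1 (-4.96 ± 0.12) were left out of the text above. Predicted genes, olfactory receptors and receptor segments were counted only. The members and lists were chosen with earlier results of these data known. Alternatives were cyclic loess, quantile normalization, median centring, a filter at the table median, fits on 6 or 9 arrays, a trended robust prior, a replicate block, another row per gene and leaving out each array. Promoter windows came from RefSeq on GRCm38.p6 and were matched by symbol for 14694 genes. The motifs ISRE, RBPJ and ARE were chosen after the values were seen.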

Additional observations from a re-analysis of the deposited data

How the results depend on the processing

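Of 482 called genes among the 835 named or listed, 417 were called under every alternative in which they were tested. Another 65 lost the call under at least 1, and 0 changed sign in limma. The alternatives numbered 15, but 14 for genes that the filter at the table median left out, such as Bst1 and Slc7a11. Of 594 comparisons of a count under an alternative, taken over all genes and over each list's more frequent direction where it held at least 5 genes, 588 stayed within 1.5 times. The exceptions were class I presentation genes, of which 5 were higher, 2 with arrays centred on their median and 1 to 8 with 1 array left out, and cell cycle genes, of which 21 were higher, 13 to 22 with 1 array left out and 13 without PDPN+BP3+ replicate 2. The cause was not tested. Of the 50 other list counts, which were smaller or in the less frequent direction, 19 moved by over 1.5 times under at least 1 alternative. Over all genes 2433 to 2856 were higher and 1709 to 1996 lower with 1 array left out, where fewer arrays enter the fit. With arrays centred on their median 2697 were higher and 2941 lower. Among genes above the table median 2572 were higher and 1670 lower. With the replicate number as a block 3011 were higher and 2107 lower, 5118 in all. Of the uncalled genes named, the block called Cxcl1 and Nfkbia. Over all genes the deviations of same-numbered PDPN+BP3+ and PDPN- arrays correlated at -0.017, 0.081 and -0.066, which did not meet the rule for pairing, and replicate 1 and replicate 3 of PDPN+BP3+ correlated best with another number. Some list means followed the number, being highest in replicate 2 (cell cycle) or replicate 1 (interferon-stimulated and class I genes) of all 3 lymph node populations. Each population rests on 3 arrays of amplified RNA from pooled mice, so the spread is between pools and not between mice. Signals below the table median of 3.8 may lie at background.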

Other observations

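Guidance molecules and transcription factors also differed. Differences are PDPN+BP3+ minus PDPN- as above. Of 29 guidance and neuronal-type genes 13 were higher and 7 lower (median 0.21). Robo2, a receptor for Slit proteins, read 7.28, 7.51 and 7.28 against 2.6, 2.17 and 2.58 (4.91 ± 0.23), and Robo1 (1.98 ± 0.19) and the semaphorin receptor Plxna4 (2.8 ± 0.15) were higher, whereas the ligands Slit3 (6.44, 6.27 and 6.25 against 8.41, 8.05 and 8.07, -1.86 ± 0.14) and Slit2 (-1.35 ± 0.27) were lower. Of 44 Hox and regional transcription factors 10 were higher and 10 lower (median -0.03). Osr1 (7.91, 7.52 and 7.66 against 4.93, 4.2 and 4.15, 3.27 ± 0.19) and Foxp2 (2.48 ± 0.17) led the rises, and Ebf2 (2.69, 2.79 and 2.52 against 7.4, 7.33 and 7.36, -4.7 ± 0.14) and Foxc2 (-2.44 ± 0.26) the falls. Most Hox genes measured, such as Hoxc6 (0.15 ± 0.19) and Hoxa4 (-0.13 ± 0.16), did not pass. The receptor tyrosine kinase Ret was higher (1.74 ± 0.14), while its ligand genes Gdnf (0.03 ± 0.12) and Nrtn (0.05 ± 0.13) were not called and lay below the table median.

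Antigen presentation and complement genes were partly higher. Of 10 class II presentation genes 6 were higher and 0 lower by limma, at an unadjusted p below 0.05 as well (median 0.60), among them Cd74 (5.7, 5.71 and 5.41 against 2.83, 2.68 and 2.63, 2.89 ± 0.3), H2-Ab1 (1.38 ± 0.29) and the protease Ctss (1.63 ± 0.25), and the transactivator Ciita (0.01 ± 0.11) was not called. Of 17 complement genes 7 were higher and 1 lower (median 0.24), led by Cfb (9.47, 9.24 and 9.33 against 6.95, 6.46 and 6.54, 2.7 ± 0.14) and by C4a (2.07 ± 0.2), which the probes may not separate from its paralog. The lower count was 0 without PDPN+BP3+ replicate 2 or 3 or PDPN- replicate 1. Of 15 myeloid genes 7 were higher and 1 lower, and the list mean was 3.52 to 3.56 on the PDPN+BP3+, 2.77 on each PDPN- array and 3.27 to 3.50 on the PDPN+BP3- arrays. Cd14 (7.2, 6.97 and 6.79 against 2.44, 2.48 and 2.26, 4.59 ± 0.25), Aif1 (1.94 ± 0.17) and Lyz2 (1.61 ± 0.41) were higher, as were Tyrobp, Ly86, Cd52 and Laptm5. Laptm5 lost its call under 4 of 15 alternatives. The macrophage gene Cd68 was the lower member (-1.55, limma adjusted p 0.000274). Ptprc (2.94, 3.01 and 3.17 against 3.21, 2.96 and 2.83), Csf1r (2.75, 2.37 and 2.67 against 2.76, 2.36 and 2.52) and Itgam (2.33, 1.98 and 2.23 against 2.45, 2.43 and 2.54) were below the table median on every array and not called. Itgam was called with arrays centred on their median, with the trended robust prior and without PDPN+BP3+ replicate 1. The part of myeloid RNA in the class II result was not tested. Of 16 class I presentation genes 5 were higher and 1 lower (median 0.31), led by the proteasome activator Psme2 (0.71 ± 0.19), while H2-K1 was not called (-0.13 ± 0.11). The count of 5 was 2 with arrays centred on their median, 1 without PDPN+BP3+ replicate 1, 2 without PDPN+BP3+ replicate 2, 8 without PDPN+BP3+ replicate 3 and 2 without PDPN- replicate 2. Of 14 T lineage genes Cd247 was higher (0.59 ± 0.2), a call that was lost after quantile normalization and without replicate 2 or 3 of either population. Of 11 B lineage genes 1 was higher and 1 lower, and 0 of 7 mesothelial genes were called by limma, with 1 lower at an unadjusted p below 0.05. Of 6 glial genes 1 was lower (S100b, -1.03 ± 0.18), and of 8 lymphatic endothelial genes Pdpn was higher and Lyve1 lower (-0.96 ± 0.28, not called without PDPN+BP3+ replicate 2 or PDPN- replicate 1), while Prox1 (-0.33 ± 0.2) was not called.

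Of 11 genes typical of follicular dendritic cells 4 were higher and 0 lower by limma (median 0.28), and 7 and 0 at an unadjusted p below 0.05. The 4 were Cxcl13, Madcam1, clusterin (Clu, 11.13, 11.0 and 11.02 against 6.78, 6.71 and 5.93, 4.58 ± 0.22) and the prion protein gene Prnp (1.77 ± 0.18). The complement receptor Cr2 (2.36, 2.67 and 2.26 against 2.18, 2.04 and 2.24) and the Fc receptor genes Fcgr2b (0.18 ± 0.16) and Fcer2a (0.03 ± 0.12) lay below the table median and were not called. Mfge8 was high in both populations and not called (11.12, 11.12 and 11.12 against 10.66, 10.9 and 10.97, 0.28 ± 0.1), and it was 2.05 ± 0.1 above PDPN+BP3- cells. Against PDPN- cells Mfge8 was called after cyclic loess, with the trended robust prior and without PDPN- replicate 3. Among 18 genes of adventitial fibroblasts 9 were lower and 3 higher (median -0.66). Their list mean was 4.12 to 4.44 on the PDPN+BP3+ and 4.65 to 4.83 on the PDPN- arrays. On the PDPN+BP3- arrays it was 7.76 to 8.23, far above both. Those higher were Pdgfra, the lectin Clec3b (3.25 ± 0.23) and the dipeptidase Dpep1 (1.18 ± 0.25), and those lower included Anxa3 (-2.85 ± 0.22), Gpc3 (-2.62 ± 0.15) and Igfbp6 (-0.99 ± 0.16).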
